A study of Mus musculus with 11 samples.

Results

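The folate and methionine cycles pass single-carbon units between amino acids, nucleotides and methyl groups. Serine and glycine load the carbon onto tetrahydrofolate, the methyl form of folate turns homocysteine into methionine, and methionine is activated to S-adenosylmethionine, the methyl donor of the cell. Choline enters the same network, because its oxidation product betaine can also methylate homocysteine. The 9 genes described here, *Mthfd1*, *Mthfd1l*, *Mthfd2*, *Shmt1*, *Shmt2*, *Mtr*, *Mtrr*, *Mat2a* and *Ahcy*, were chosen by name as the core enzymes of both cycles. All 9 were present among the 12787 genes with a deposited value, which the authors had limited by leaving out genes too low in every library.

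RNA was sequenced from the gonadal white adipose tissue (WAT) of 11 male C57Bl6/J mice. All 11 mice ate a 60% high fat diet (HFD), which lasted 20 weeks. The sources used here do not say whether IMC was given for all of that time. The 5 HFD control mice received the vehicle, and the 6 IMC-treated mice received the same diet with 0.06% w/w iodomethylcholine (IMC), an inhibitor of the gut bacterial lyase that turns choline into trimethylamine. The mice carry no engineered allele, their age is not given in the sources used here, and each mouse gave 1 library and is numbered within its group; a further control was dropped by the authors for quality. The comparison asks how adipose tissue RNA differs when the microbial use of choline is inhibited.

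Levels are given as log2 CPM, where CPM is the read count of a gene relative to the scaled size of its library. The libraries held 22320022 to 23635249 reads on listed genes in HFD control mice and 22619505 to 25155366 in IMC-treated mice, and a single read was worth 0.0403 to 0.0450 CPM. No difference in mean depth was shown between the groups (exact permutation test, two-sided, p = 0.156), which does not show that depth was equal. Differences are IMC-treated minus HFD control on the log2 scale, tested with limma over all 12787 genes with Benjamini-Hochberg adjustment, and a gene is called changed where the adjusted p is under 0.05. The tissue label was checked with marker genes. All 10 adipocyte markers were listed and all 10 rose with IMC, their summed level going from 6636 to 10064 CPM in HFD control mice to 14932 to 17036 CPM in IMC-treated mice. Of 10 macrophage markers, 9 fell, with sums of 10395 to 14116 CPM against 6058 to 9765 CPM, and all 6 mast cell markers fell. Over all genes, 20% were called higher and 21.0% lower. In RNA from a whole tissue, fewer cells of a type and less RNA per cell cannot be told apart, and the part of cell makeup in the results below was not tested.

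With IMC, 2 of the 9 genes rose and none fell. *Mat2a*, which encodes the enzyme that makes S-adenosylmethionine outside the liver, rose by 24.2%, and *Mthfd1*, which encodes the cytosolic enzyme that interconverts the folate-bound forms of the carbon unit, rose by 15.2%. Of all genes tested, 40.9% were called, 20% higher and 21.0% lower, so the 22.2% called among the 9 genes did not stand above the background. The median log2 fold change of the 9 genes was 0.10, beside -0.03 over all genes, and 7 of the 9 values were positive. In size, the median absolute log2 fold change was 0.10 for the 9 genes and 0.17 for all genes. None of the 9 genes separated the groups without overlap, while 23.1% of all genes did.

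**Figure D1:**
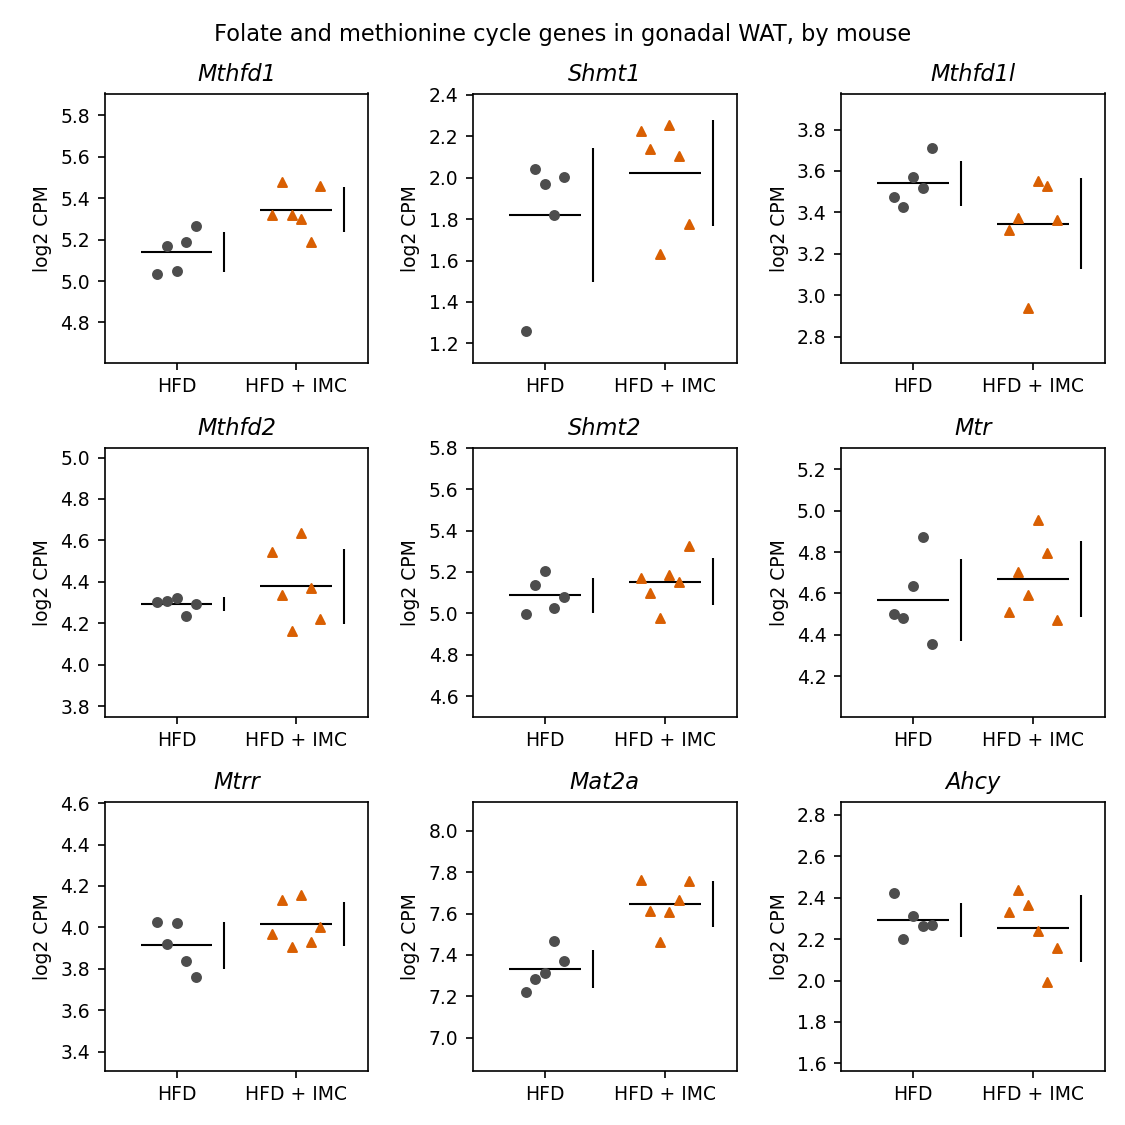
Level of each of the 9 genes in every mouse, in log2 CPM, with 5 HFD control mice (grey circles) and 6 IMC-treated mice (orange triangles); horizontal lines are means, vertical lines are 1 SD either side, and every panel spans the same number of log2 units. The groups lie farthest apart for *Mat2a* and *Mthfd1* relative to their spread, and overlap in all 9 panels.

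*Mat2a* is the most abundant of the 9 genes and showed the clearest difference. HFD control mice had 7.22, 7.28, 7.31, 7.47 and 7.37 log2 CPM, and IMC-treated mice ranged from 7.46 to 7.76 with a median of 7.64. In 5 of 6 IMC-treated mice the level was above every control, and the lowest treated mouse lay just under the highest control. The log2 fold change was 0.31 ± 0.06 (SE; 95% interval 0.18 to 0.44; limma, adjusted p = 0.0015). Between 3312 and 5255 reads stood behind each value, and the SD between mice of a group, 0.10 on the log2 scale, was above the 0.02 that counting alone would give. Its partner *Mat2b*, the regulatory subunit of the same enzyme, had a log2 fold change of 0.01 ± 0.05 (adjusted p = 0.919), and *Mettl16*, whose product methylates the *Mat2a* transcript, had 0.08 ± 0.06 (adjusted p = 0.306). The latter pair of genes was picked out after their values were seen.

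*Mat2a* lies on the minus strand at chr6:72432799-72439558 (mm10, GENCODE M21). The splicing and stability of its transcript are known to respond to the supply of S-adenosylmethionine through hairpins in the 3′ UTR that METTL16 binds. The letters TACAGANAA of those hairpins were searched on the sense strand of its transcript, a search chosen after the values were seen. They occurred 6 times downstream of the last coding base, the nearest 43 bases and the farthest 1340 bases after it. The 6 sites are shown because they are the best known RNA element of the gene with the largest change; capitals mark the searched letters.
Mat2a site 1, chr6:72434237-72434261: gcgtaggtTACAGAGAAgccttcaa
Mat2a site 2, chr6:72433453-72433477: ttgtgataTACAGAGAAgtcacagg
Mat2a site 3, chr6:72433274-72433298: ggtgtagcTACAGAGAAaccagctt
Mat2a site 4, chr6:72433159-72433183: ggcgtaagTACAGAGAAgccatcac
Mat2a site 5, chr6:72433048-72433072: aggtgtccTACAGAAAAaccttggg
Mat2a site 6, chr6:72432940-72432964: tggtgtggTACAGAGAAgccagctt
Among 10601 other listed genes whose transcript is long enough, 5.24% held at least 1 such run in the last 1463 bases, and the most in any of them was 4. That window was set to just hold all 6 sites of *Mat2a*. It was thus fitted to *Mat2a*, and the counts are not an even comparison. A match of letters is a description only, and the RNA data hold no measure of methylation at these sites.

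An antisense gene, *Particl*, overlaps *Mat2a*. Its mean level went from 1.04 ± 0.15 log2 CPM (SD, n = 5) to 0.49 ± 0.21 (SD, n = 6), a log2 fold change of -0.55 ± 0.15 (limma, adjusted p = 0.00968), on 28 to 53 reads. The library kit kept the strand, but the strand setting of the count is not given in the sources used here, so reads of the overlapping genes may not be fully separated. A stretch covering 9.36% of the *Mat2a* transcript is also at least 98% identical to a processed pseudogene or to *Particl*.

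*Mthfd1* was the other gene that passed the test. Its values were 5.03, 5.17, 5.05, 5.19 and 5.26 log2 CPM in HFD control mice, and in IMC-treated mice they ran from 5.19 to 5.48 with a median of 5.32. In 5 of 6 treated mice the level exceeded every control. The log2 fold change was 0.20 ± 0.06 (SE; 95% interval 0.07 to 0.34; limma, adjusted p = 0.0204), on 727 to 1068 reads. This call was close to the threshold. With libraries scaled by their total count the log2 fold change was 0.17 (adjusted p = 0.0531), and without HFD control mouse 1 or mouse 3 it was 0.18 (adjusted p = 0.0562 and 0.0571). The gene lies at chr12:76255298-76319803 on the plus strand, where 3 annotated genes of the opposite strand overlap it. The limit on separating the strands given for *Mat2a* holds here too.

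The 250 bases before the RefSeq start of the 2 genes that rose are shown so that they can be compared (GRCm38.p6, each on its own strand), with capitals for a TATA box (TATAAA, forward strand) or a CCAAT box (CCAAT or its reverse ATTGG).
Mat2a, chr6:72439557-72439806, minus strand: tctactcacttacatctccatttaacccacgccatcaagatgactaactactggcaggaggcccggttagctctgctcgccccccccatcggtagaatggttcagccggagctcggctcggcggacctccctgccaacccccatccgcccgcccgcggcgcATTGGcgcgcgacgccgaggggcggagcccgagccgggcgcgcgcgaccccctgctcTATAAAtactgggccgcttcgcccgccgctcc
Mthfd1, chr12:76254982-76255231, plus strand: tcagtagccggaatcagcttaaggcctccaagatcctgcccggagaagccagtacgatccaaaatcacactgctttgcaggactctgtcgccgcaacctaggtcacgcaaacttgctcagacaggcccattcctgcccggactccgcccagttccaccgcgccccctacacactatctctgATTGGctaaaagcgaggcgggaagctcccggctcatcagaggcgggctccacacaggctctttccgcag
The *Mat2a* window held a TATA box starting 32 bases before the start site, and no window of the other 8 genes did. Over 32851 RefSeq windows of 300 bases, 8.32% held those letters. Each of the printed sequences held 1 CCAAT box, found in 37.4% of windows. These boxes were chosen for the search after the values were seen. Of 3 other motifs, the C/EBP-ATF element (TGATGNAA, in 3.97% of windows), the cAMP response element (TGACGTCA, 1.79%) and the E-box (CACGTG, 7.15%), none occurred on either strand in the 10 windows of the 9 genes, which says only that these letters are not there.

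Of the mitochondrial folate enzymes among the 9 genes, none passed the test. *Mthfd1l*, whose product releases formate from the mitochondria, was the member with the largest negative value. HFD control mice had 3.48, 3.43, 3.57, 3.52 and 3.71 log2 CPM, and IMC-treated mice had 2.94 to 3.55 with a median of 3.37. In 4 of 6 treated mice the level was under every control, one of them far under, while the other two lay within the control range. The log2 fold change was -0.20 ± 0.10 (95% interval -0.42 to 0.03; limma, adjusted p = 0.154). Without IMC-treated mouse 3, the lowest one, it was -0.11 (adjusted p = 0.280).

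*Mthfd2*, the mitochondrial dehydrogenase that is high in dividing cells, was even among controls at 4.30, 4.31, 4.32, 4.24 and 4.29 log2 CPM. The treated mice spread from 4.16 to 4.63 with a median of 4.35, so that 4 lay above and 2 below all controls. The log2 fold change was 0.09 ± 0.08 (adjusted p = 0.422), with an interval of -0.09 to 0.26. Its values moved from 0.03 without IMC-treated mouse 4 to 0.13 without mouse 3, none past the threshold. Of 10 proliferation markers in the same libraries, 4 fell and none rose, and the share called (40%) was close to that of all genes (40.9%).

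*Shmt2*, which cleaves serine to glycine in the mitochondria, had 5.00, 5.14, 5.21, 5.02 and 5.08 log2 CPM in controls and 4.98 to 5.33 in treated mice, with a median of 5.16. The groups lay over each other, and the interval of the log2 fold change ran from -0.07 to 0.20 (adjusted p = 0.443). The value itself, 0.06, was 0.03 without IMC-treated mouse 6 and 0.10 without mouse 3. It shares its place in the genome with *Ndufa4l2* on the other strand, whose log2 fold change was -0.23 ± 0.14 (adjusted p = 0.193).

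*Shmt1*, the cytosolic serine enzyme, was the least expressed of the 9 genes, with 53 to 118 reads per mouse. HFD control mice had 1.26, 2.04, 1.97, 1.82 and 2.0 log2 CPM, and IMC-treated mice 1.63 to 2.25 with a median of 2.12. Control mouse 1 stood far under the rest, and 4 of 6 treated mice were above all controls. The log2 fold change of 0.20 had the largest error of the set, 0.16, and its interval of -0.15 to 0.56 covers both no change and a rise of 47.1% (adjusted p = 0.350). Without control mouse 1 it was 0.06. The cytosolic enzymes *Shmt1* and *Mthfd1* thus had nearly equal estimates and very unequal errors. Reads could also be exchanged with *Smcr8*, which overlaps *Shmt1* on the opposite strand at a far higher level, 6.42 log2 CPM in controls and 6.26 in treated mice.

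The enzymes that join the cycles showed small values of the same sign. *Mtr*, the cobalamin-dependent methionine synthase, had 4.50, 4.48, 4.64, 4.87 and 4.35 log2 CPM in controls and 4.47 to 4.96 in treated mice, with a median of 4.65. Its log2 fold change was 0.10 ± 0.10 (adjusted p = 0.462). *Mtrr*, the reductase that keeps methionine synthase active, had 4.02, 3.92, 4.02, 3.84 and 3.76 log2 CPM in controls and 3.90 to 4.16 in treated mice, with a median of 3.98. Here the log2 fold change was 0.10 ± 0.07 (adjusted p = 0.284), with 2 treated mice above all controls. The intervals allow changes from -8.15% to 25.2% for *Mtr* and from -3.71% to 19.6% for *Mtrr*, so neither a small rise nor its absence was shown. Leaving out 1 mouse moved the log2 fold change of *Mtr* between 0.04 (IMC-treated mouse 4) and 0.18 (HFD control mouse 4), and that of *Mtrr* between 0.06 (HFD control mouse 5) and 0.13 (HFD control mouse 1).

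*Ahcy*, which removes S-adenosylhomocysteine after methyl transfer, had the value nearest 0. Levels were 2.42, 2.20, 2.31, 2.26 and 2.27 log2 CPM in HFD control mice and 1.99 to 2.44 in IMC-treated mice, with a median of 2.29. The log2 fold change was -0.04 ± 0.10 (95% interval -0.25 to 0.17; limma, adjusted p = 0.777), and without IMC-treated mouse 5 it was 0.013. Its count is uncertain, because 81.9% of the transcript is at least 98% identical to the copies *Gm4737* or *Gm9826*, neither of which has a value in the table, and reads that fit several places may have been left out. With 98 to 123 reads per mouse, the SD expected from counting (0.13) equalled the SD between mice (0.13).

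**Figure D2:**
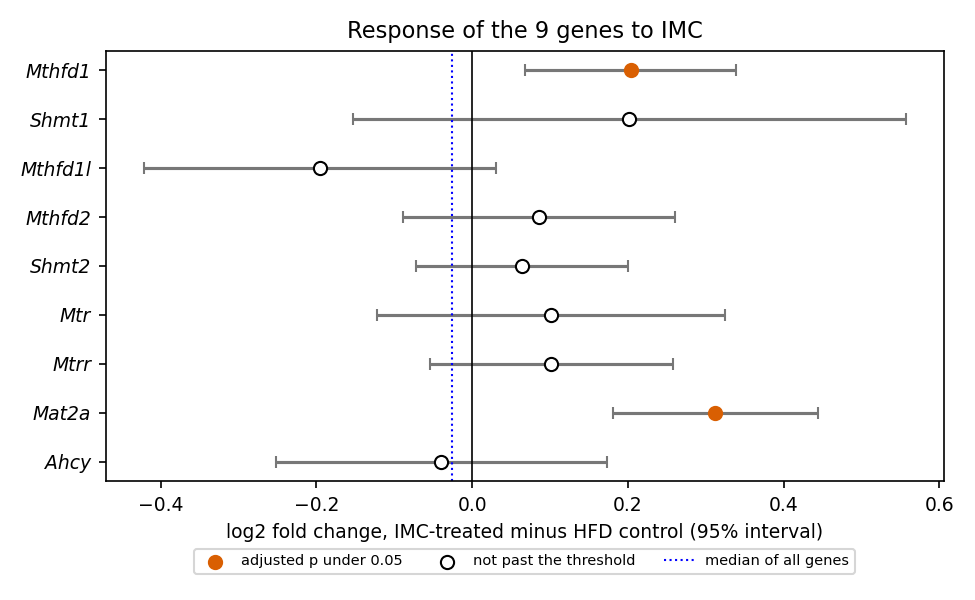
Log2 fold change of the 9 genes, IMC-treated minus HFD control, with 95% intervals from limma; filled orange points passed an adjusted p of 0.05 and open points did not, and the dotted line is the median of all 12787 genes. The intervals of *Mat2a* (0.18 to 0.44) and *Mthfd1* (0.07 to 0.34) lie above 0, and the other 7 include 0.

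That *Mthfd1* passed the test and *Mthfd1l* did not is no test of their difference, so the difference of log2 CPM between the genes of 5 pairs was taken within each mouse and compared between the groups. The value does not depend on how a library was scaled. Two-sided exact permutation tests over the 462 splits of the mice, which cannot give a p under 0.00433, were adjusted over the 5 pairs. None of the 5 passed. Tests without a mouse have fewer splits, so their smallest possible p is larger and their p-values move in coarser steps.

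For the mitochondrial *Mthfd1l* against the cytosolic *Mthfd1*, controls had -1.56, -1.74, -1.48, -1.67 and -1.55, and treated mice -2.38 to -1.66 with a median of -2.05. In 5 of 6 treated mice the mitochondrial gene stood lower against the cytosolic one than in any control. The means were -1.60 ± 0.10 (SD, n = 5) and -2.0 ± 0.26 (SD, n = 6), a difference of -0.40 (exact permutation p = 0.0173, adjusted p = 0.0649). Without HFD control mouse 4 the difference was -0.42 (exact permutation test, adjusted p = 0.0476), and without IMC-treated mouse 5 it was -0.47 (adjusted p = 0.0397, exact permutation test). In the other 9 fits without a mouse the pair did not pass, and the adjusted p reached 0.143 without HFD control mouse 1 or 3 (exact permutation test).

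*Mat2a* against *Ahcy*, the enzymes that make the methyl donor and clear its product, gave 4.80, 5.09, 5.00, 5.21 and 5.10 in controls and 5.09 to 5.67 in treated mice, with a median of 5.40. In 4 of 6 treated mice the difference was above that of all controls. The group difference was 0.35 (exact permutation p = 0.0260, adjusted p = 0.0649), and 0.39 without HFD control mouse 4 (exact permutation test, adjusted p = 0.0476). The other 10 fits without a mouse did not pass, with 0.29 and an adjusted p of 0.143 without HFD control mouse 1 (exact permutation test). The uncertain count of *Ahcy* carries over to this pair.

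The other 3 pairs had larger p-values, which does not show that their genes responded alike. *Shmt2* against *Shmt1* differed by -0.14 between the groups (exact permutation test, adjusted p = 0.503), and by -0.021 without HFD control mouse 1. *Mthfd2* against *Mthfd1* differed by -0.12 (exact permutation test, adjusted p = 0.503), with treated mice on both sides of the controls. *Mtr* and its reductase *Mtrr* had a mean difference of 0.66 ± 0.22 in controls (SD, n = 5) and 0.66 ± 0.16 in treated mice (SD, n = 6), a group difference of -0.00086 (exact permutation test, adjusted p = 0.974).

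**Figure D3:**
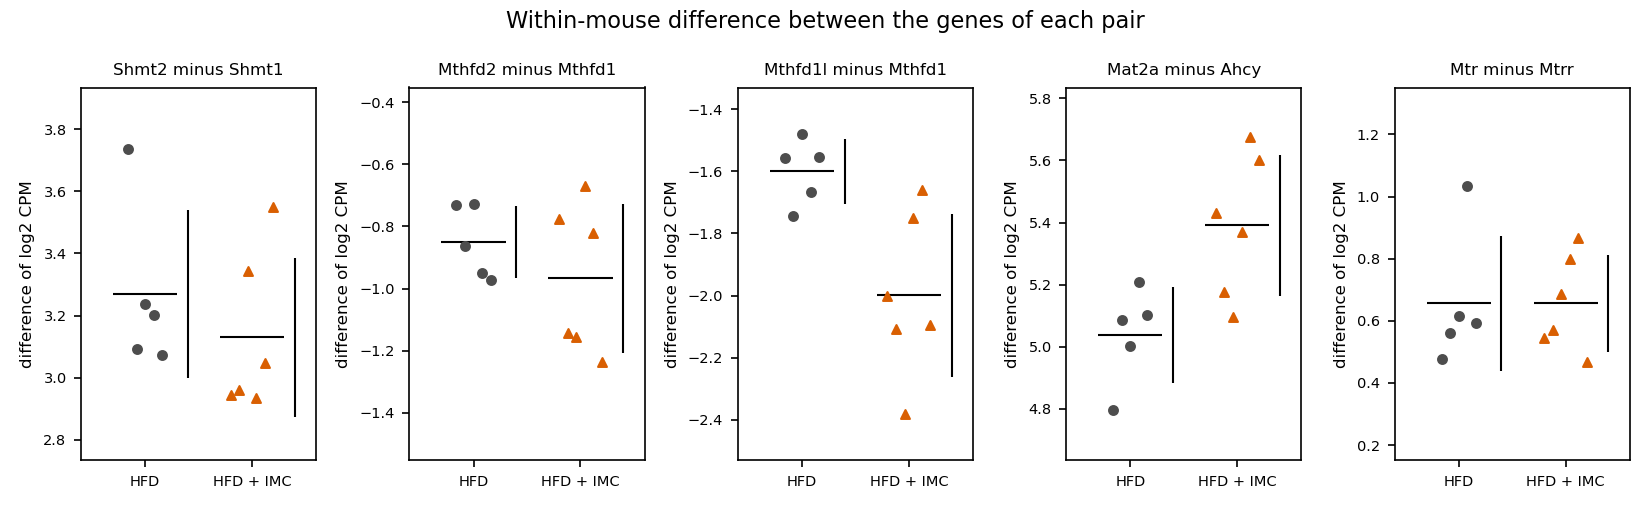
Within-mouse difference of log2 CPM for 5 pairs of genes in HFD control mice (grey circles, n = 5) and IMC-treated mice (orange triangles, n = 6), with means (horizontal lines) and 1 SD either side (vertical lines). In the pair *Mthfd1l* minus *Mthfd1*, 5 of 6 treated mice lie below all controls, and in *Mat2a* minus *Ahcy*, 4 of 6 lie above them.

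Levels of different genes were compared per kilobase of annotated exons (GENCODE M21). *Mat2a* led with 35.98 ± 2.37 CPM per kilobase in HFD control mice and 44.7 ± 3.41 in IMC-treated mice (SD). *Shmt2* followed at 10.96 and *Mthfd1* at 7.96 in controls, and each was separated from its neighbours in the order without overlap in either group. *Mthfd2* came after them at 5.62 CPM per kilobase. *Mtrr* (2.91), *Mtr* (2.81) and *Mthfd1l* (2.63) came next, and the ranges of *Mtrr* and *Mtr*, and of *Mtr* and *Mthfd1l*, overlapped in both groups, so their order is not set. *Ahcy* had 1.75 and *Shmt1* 0.926 CPM per kilobase in controls. The order of the means was the same in IMC-treated mice, though *Mthfd1l* and *Ahcy* then overlapped. With the length of the basic gene models alone, all 9 means kept their place, but in IMC-treated mice *Shmt2* and *Mthfd1*, *Mthfd1* and *Mthfd2*, and *Ahcy* and its neighbours then overlapped in range, and the ratio of *Mthfd1* to *Mthfd2* in controls went from 1.42 to 1.16. In RNA level, then, *Shmt2*, the gene of the mitochondrial serine enzyme, was above *Shmt1*, the gene of the cytosolic one. The RNA of *Mthfd1* was above that of *Mthfd1l*, and its lead over *Mthfd2* depended on the length used. RNA levels do not measure the amount of enzyme in a compartment.

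**Figure D4:**
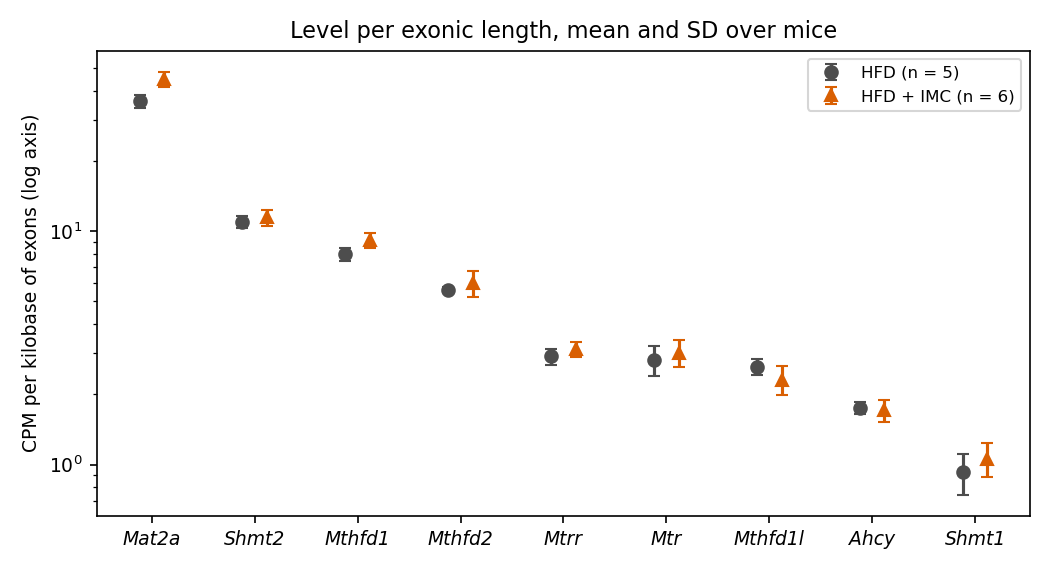
Mean level of the 9 genes in CPM per kilobase of exons on a log axis, with 1 SD over mice, in HFD control mice (grey circles, n = 5) and IMC-treated mice (orange triangles, n = 6). Genes are ordered by their control mean, from 35.98 for *Mat2a* to 0.926 for *Shmt1*.

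The other genes of one-carbon metabolism give the setting. Of 65 further genes in 8 lists, 58 had a value, 20 rose and 9 fell, so that 50.0% were called beside 40.9% of all genes. Their median log2 fold change was 0.10, the same as that of the 9 genes. Of these 58 genes, 20 (34.5%) separated the groups without overlap, beside 23.1% of all genes. Genes below are the 3 of each list with the smallest p, unless said otherwise. Genes picked in that way are likely to separate the groups, so their separation adds no support of its own.

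Serine synthesis, the upstream source of the carbon unit, rose in 2 of 3 genes (66.7%, beside 40.9% of all genes called). *Phgdh*, its first enzyme, had a median of 4.53 log2 CPM in controls and 5.67 in treated mice without overlap, a log2 fold change of 1.02 ± 0.13 (limma, adjusted p = 9.0e-05). *Psat1*, the next enzyme, rose by 0.62 ± 0.07, also without overlap, and the last enzyme *Psph* had 0.24 ± 0.09 (adjusted p = 0.0576). The serine-cleaving *Shmt1* and *Shmt2* were not called, as described above, and their difference from the serine synthesis genes was not tested.

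Folate transport gave 2 rises and 1 fall among 4 genes. *Slc19a1*, the reduced folate carrier, rose by 0.59 ± 0.11 on the log2 scale without overlap, and *Slc46a1*, the proton-coupled folate transporter, by 0.27 ± 0.10 (limma, adjusted p = 0.0499). The *Slc46a1* call lay at the threshold and its groups overlapped, with 3 of 6 treated mice above every control. Its highest treated mouse stood apart from the others. *Folr2*, a folate receptor of tissue macrophages, dropped by 0.61 on the log2 scale with an SE of 0.10, in libraries where macrophage markers fell. In the rest of the folate cycle 2 of 14 genes rose and 3 fell, with a median of -0.06. The share called there, 35.7%, was below that of all genes. *Aldh1l1*, which oxidises the folate-bound carbon to carbon dioxide, rose by 0.85 ± 0.11 without overlap. *Ggh*, which trims the polyglutamate tail of folate, had -0.17 ± 0.05 and *Mthfsl* -0.36 ± 0.10, both falls past the threshold.

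Genes of glycine cleavage and of the breakdown of choline gave 4 rises and no fall among 7. The share called was 57.1%, beside 40.9% of all genes. Not all of them encode an enzyme that itself releases a carbon unit. *Sardh*, which demethylates the choline-derived sarcosine, rose by 0.37 ± 0.05, the glycine cleavage protein *Gcsh* by 0.42 ± 0.06, and *Dld*, a subunit shared with other mitochondrial dehydrogenases, by 0.35 ± 0.05. *Chdh*, choline dehydrogenase, is named outside the rule as the fourth rise, by 1.03 ± 0.25 (adjusted p = 0.00511), and its groups overlapped. The glycine decarboxylase *Gldc*, also outside the rule, had 0.01 ± 0.23 (limma, adjusted p = 0.974). The aminomethyltransferase *Amt* of glycine cleavage, likewise outside the rule, had 0.21 ± 0.23 (limma, adjusted p = 0.488).

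Around the methionine cycle, 4 of 10 further genes rose and none fell. *Ahcyl2*, a relative of *Ahcy*, rose by 0.61 ± 0.06, *Nnmt*, a methyltransferase that uses S-adenosylmethionine, by 0.64 ± 0.10, and *Adk*, which removes the adenosine that *Ahcy* releases, by 0.38 ± 0.08. All 3 separated the groups, while the groups overlapped in every other gene with a value in this list. *Bhmt* and *Bhmt2*, the genes of the step in which betaine methylates homocysteine, had no value, so that step was not compared. In transsulfuration, the route by which homocysteine leaves the cycle, *Cth* was the 1 gene of 2 with a value, and it rose by 0.63 ± 0.08 without overlap. The other gene, *Cbs*, which encodes the first enzyme of the route, had no value. Methionine salvage and polyamine genes gave 1 rise and 4 falls among 10, a share called of 50.0%. The smallest p-values there belonged to *Got1* (-0.33 ± 0.06), *Sat1* (-0.33 ± 0.06) and *Sms* (-0.31 ± 0.09).

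Cobalamin is the cofactor of *Mtr*, and 4 of 9 genes handling it rose while 1 fell. The share called was 55.6%, beside 40.9% of all genes. *Cd320*, the receptor that brings cobalamin into cells, rose by 0.68 ± 0.10, *Mmachc*, which processes it, by 0.44 ± 0.07, and *Mut*, the other cobalamin-dependent enzyme, by 0.50 ± 0.06, each without overlap. *Mtr* and *Mtrr* were not called, and their difference from these genes was not tested.

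**Figure D5:**
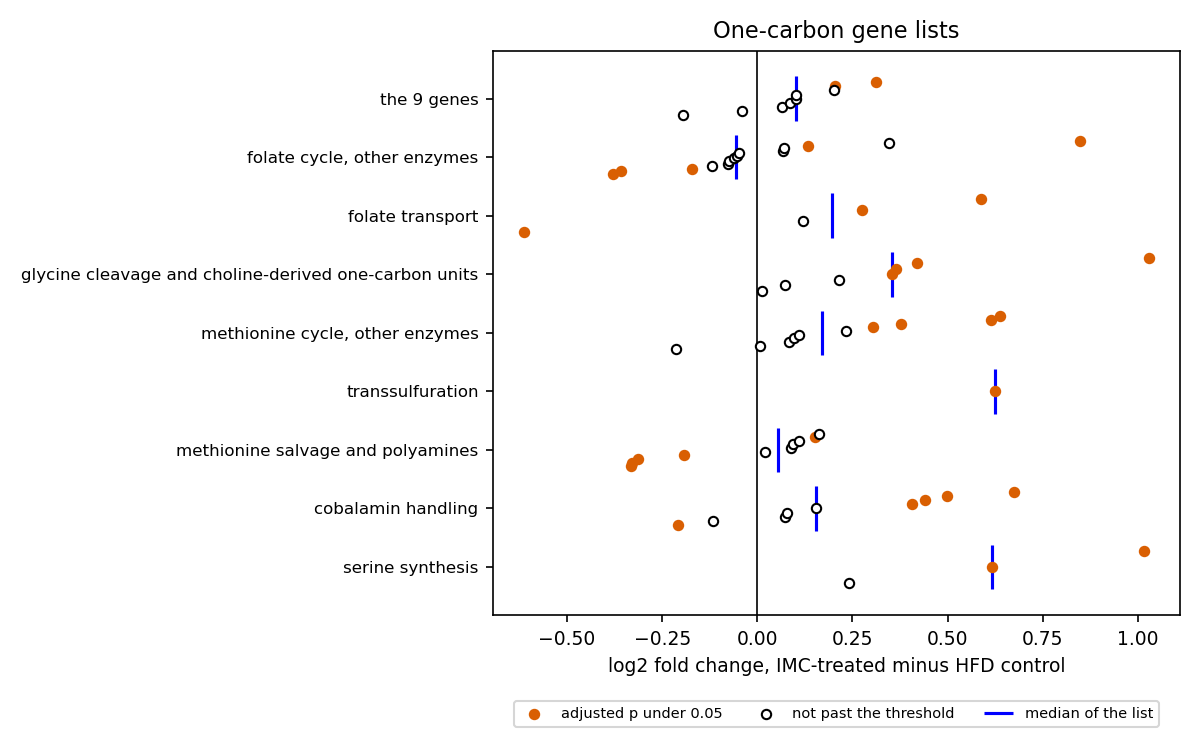
Log2 fold change, IMC-treated minus HFD control, of the 9 genes and of 58 other one-carbon genes in 8 lists; each point is a gene, filled orange where the adjusted p was under 0.05 and open otherwise, and blue bars are list medians. The 9 genes reach from -0.20 to 0.31, and single genes of other lists reach 1.03 (*Chdh*), 1.02 (*Phgdh*) and -0.61 (*Folr2*).

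For each of the 2 genes that rose, the gene outside the lists with the most similar profile over the 11 mice was found by the root mean square distance of centred log2 CPM. For *Mat2a*, whose own deviation was 0.18, the nearest was *Cfl2*, an actin-binding protein, at a distance of 0.06 and with a log2 fold change of 0.32. *Mthfd1*, with a deviation of 0.14, was nearest to *Suclg1*, a subunit of succinyl-CoA ligase, at a distance of 0.04 and with a log2 fold change of 0.23. The distances are a description over 11 mice that share the group difference.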

How the data were processed

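mRNA libraries of gonadal WAT were made with a directional kit and sequenced in pairs. The authors trimmed reads with Trim Galore, aligned them to mm10 with STAR and UCSC annotation, counted them per gene, removed low genes, and scaled libraries by the upper quartile with edgeR. They deposited log2 CPM for 12787 genes in 11 mice. The authors also deposited their own comparison: log2 fold change and mean log2 CPM, a likelihood-ratio score, and a p-value with its FDR. These columns were not used.

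Groups came from the treatment label of each mouse. The test across all genes used limma 3.58.1 in R 4.3.3 on the log2 CPM as deposited (lmFit, eBayes with trend, group only), without a further filter. Pairs and depth were compared by exact permutation tests (scipy 1.17.1). The steps of each library's CPM gave whole reads for 100% of values (within 0.01 reads); these served for depth and alternative scalings. Nothing in the labels names a cage or a batch. Intervals cover the spread between mice, and reads without molecular identifiers are not independent molecules. Exon lengths, overlaps and sequences came from GENCODE M21 (GRCm38), with all 9 genes matched by symbol, and promoters from RefSeq (GRCm38.p6). Near-identical copies share at least 98% over 100 bases or more. Protein sequences were not used here.

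The 9 genes, the other lists and the tests were chosen with earlier results of these data known. Named genes are the 9 members, the 3 smallest p of each other one-carbon list, marker lists, and the nearest profile of each called member; others are said to be outside the rule. Endothelial markers (2 of 6 higher), progenitor and fibroblast markers (4 of 6 lower), mesothelial markers (1 of 4 listed lower) and skeletal muscle markers (2 of 7 listed, both higher) were also counted, while none of 9 T and B cell markers and none of 6 epididymis and testis markers had a value. The shares called were 33.3% (endothelial), 66.7% (progenitor and fibroblast), 25.0% (mesothelial) and 100% (skeletal muscle), beside 40.9% of all genes. The limma and read-recovery steps were tested on simulated data.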

Additional observations from a re-analysis of the deposited data

Results flagged for a closer look

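Single mice stood apart from their group, by Dixon's test at the 95% level, in 5 of 74 sets of values checked, and chance alone gives about 1 in 20. HFD control mouse 1 was lowest for *Shmt1*, at 1.26 log2 CPM with the next control at 1.82, and the same mouse had the highest *Shmt2* minus *Shmt1* difference of the controls, 3.74 with the next at 3.24. Another control, mouse 4, had the highest *Mtr* minus *Mtrr* difference, 1.03 with the next at 0.62. Among IMC-treated mice, 1 had the highest *Slc46a1* level, 4.48 log2 CPM with the next at 4.03, and 1 the lowest *Ahcyl2* level, 7.15 log2 CPM with the next at 7.37.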

How the results depend on the processing

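The limma fit was repeated under 7 other settings (total-count and median-of-ratios scaling, a constant of 2 reads, genes with at least 1 CPM in every mouse, genes with a mean of at least 3 log2 CPM, no trend, and voom weights on the recovered reads) and without each of the 11 mice. *Mat2a* stayed past the threshold in every one, with log2 fold changes of 0.28 to 0.35. With total-count scaling *Mthfd1* had 0.17 (adjusted p = 0.0531), leaving 1 of the 9 genes called; that scaling moved the median of all genes from -0.03 to -0.06 and the share of calls that were higher from 48.8% to 40.3%. Without 1 mouse, 1 to 2 of the 9 genes were called, *Mthfd1* had 0.18 to 0.23 and *Ahcy* -0.076 to 0.013, its sign turning without IMC-treated mouse 5 (0.013). The pair differences then ran from -0.47 to -0.32 (*Mthfd1l* minus *Mthfd1*), 0.29 to 0.41 (*Mat2a* minus *Ahcy*), -0.22 to -0.021 (*Shmt2* minus *Shmt1*), -0.18 to -0.063 (*Mthfd2* minus *Mthfd1*) and -0.045 to 0.094 (*Mtr* minus *Mtrr*), the last turning sign without HFD control mouse 4 (0.094) or without IMC-treated mouse 1 (0.022), 2 (0.017) or 6 (0.037). The cause of these shifts was not tested. Over all genes, 4664 to 5464 were called under the other settings and 4299 to 5125 without 1 mouse, and of the other one-carbon genes 27 to 29 and 24 to 30. *Shmt1* and *Ahcy* fell out of the set with a mean of at least 3 log2 CPM. No paired analysis was possible because the mouse numbers are not shared between the groups. The SD expected from counting was 0.15 for *Shmt1*, beside 0.29 between mice, and 0.13 for *Ahcy*, beside 0.13.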
